A study of Mus musculus with 10 samples.

Results

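The 859 loci described here are stretches of left ventricular transcription that StringTie assembled from the reads of the study and numbered itself (identifiers that begin with MSTRG), in place of taking them from a gene annotation. They were chosen by their mean level over all samples, without regard to genotype: after removing the transcript number from each such identifier, the FPKM (the fragments of a transcript per kilobase of its length, relative to all mapped fragments of the library) of the transcripts of a locus were summed, and every locus with a mean of at least 1 FPKM over the 10 samples was kept. The same values of both genotypes later served to pick out the loci whose genotypes do not overlap, so those are a description. The 859 come from 1208 assembled loci (71.1%) and from 14787 genes and assembled loci in the table as a whole, and they hold 1242 of the 1629 assembled transcripts. The 3 loci just inside the limit, MSTRG.29479, MSTRG.20488 and MSTRG.30456, had means between 1.00 and 1.004 FPKM, and the 3 just outside it, MSTRG.19294, MSTRG.5121 and MSTRG.10377, had means between 0.993 and 0.998 FPKM. Of the 349 loci outside it, 290 reached 1 FPKM in at least 1 sample and 2 were listed at 0 in every sample.

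The tissue was left ventricle taken 6 weeks after transverse aortic constriction (TAC), a narrowing of the aorta that loads the left ventricle with pressure. Sirt5 knockout samples (4, replicates 2, 3, 4 and 5) were compared with wild-type samples (6, replicates 1, 3, 4, 5, 6 and 7), and all 10 were taken after TAC. The labels give the strain as C57BL/6, and the design text gives male C57BL/6N animals that were 5 weeks old at the start. That text names both a conventional SIRT5 knockout by CRISPR-Cas9 and an inducible Cre-ERT2 system switched on by tamoxifen, states that each mouse received 1 mg of tamoxifen on 10 days in a row and waited 4 weeks before the operation, and does not say which animals the Cre system covers or which promoter drives it. Sham-operated animals are mentioned there and were not analysed here. Separate animals are not stated for the samples of a group, and the spread behind every p-value is that between these samples and may be technical.

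StringTie joins overlapping read alignments into transcript models and estimates how much each model contributes to the reads, so a locus without an annotated counterpart is a region in which reads were seen and no known transcript was assigned. Such regions can be long non-coding RNAs, unspliced RNA inside an intron of a known gene, extensions of a known gene past its annotated ends, or RNA made at enhancers. Long non-coding RNAs of the heart are known for restricted expression, and some, such as Mhrt, are known to change when the ventricle is loaded with pressure. SIRT5 is a mitochondrial enzyme that removes acidic acyl groups from lysine residues. No sequence or position is printed for the assembled loci because the table gives neither.

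The table lists long non-coding and assembled transcripts only, so neither Sirt5 nor any of 17 messenger RNA markers of heart muscle, fibroblasts, vessels and macrophages could be read and the genotype labels were not checked against the targeted gene. The heart and vessel non-coding RNAs Mhrt (0.835 to 5.78 FPKM), Carmn (9.42 to 17.97 FPKM), Bvht (0.959 to 2.08 FPKM) and Hand2os1 (15.3 to 33.4 FPKM) were above 0 in all 10 samples. Estimated depth was such that 1 FPKM stood for 22.7 to 25.8 fragments per kilobase of transcript in knockout samples and for 24.7 to 29.8 in wild-type samples. Knockout replicate 5 stood apart from the other libraries. Its correlation with each of the other 9 over the 859 loci (Pearson r of log2(FPKM + 1) across loci, which are not independent replicates) lay between 0.39 and 0.54, against 0.61 to 0.79 among the other 9, and its Malat1, a nuclear RNA, was at 951 FPKM against 58.4 to 81.8 FPKM in the others. Rmrp, a short annotated RNA, was listed at 0 in knockout replicate 5 and in wild-type replicates 3, 5 and 6.

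Most of the assembled loci were present at low levels in every library. The median locus had a mean of 1.68 FPKM, and the quartiles were 1.32 and 2.23 FPKM. Between 1 and 2 FPKM lay 572 loci (66.6%), between 2 and 5 FPKM lay 253 (29.5%), between 5 and 10 FPKM lay 28 (3.26%), and 6 loci had 10 FPKM or more. The 263 annotated genes that passed the same limit had a similar median of 1.54 FPKM and a longer upper tail, with 15 (5.70%) at 10 FPKM or more. Of the assembled loci, 822 (95.7%) were above 0 in all 10 samples, compared with 229 of the 263 annotated genes (87.1%). The other 37 were listed at 0 in 1 to 4 samples, 26 of them in a single sample. The limit itself acts on the 2 kinds of identifier unequally, because 88.2% of assembled transcripts and 4.35% of Ensembl transcripts in the table had a sample with 1 FPKM or more.

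**Figure D1:**
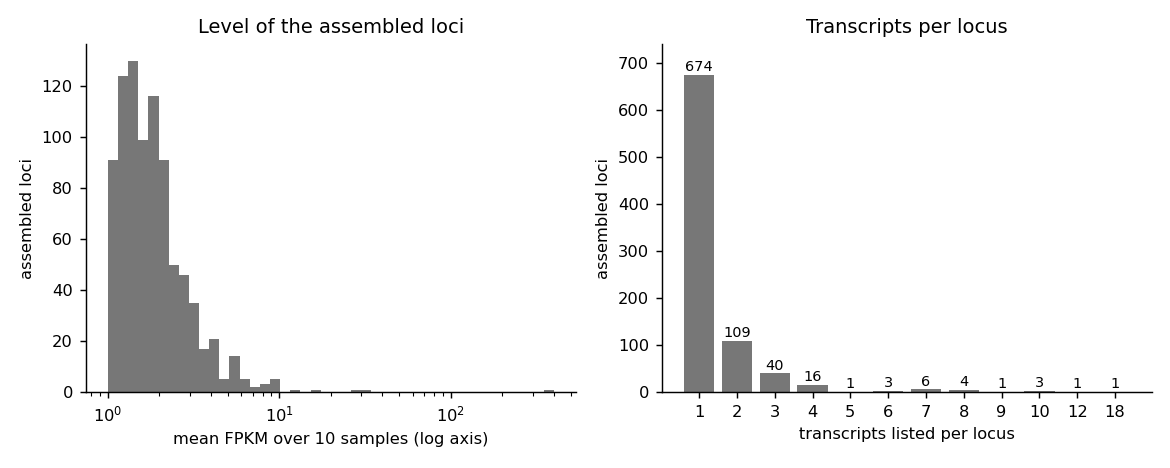
Left, number of assembled loci by mean FPKM over the 10 samples (log axis). Right, number of loci by how many of their transcripts the table lists, with the count above each bar. The levels crowd between 1 and 2 FPKM with 1 locus at 379 FPKM, and 674 of the 859 loci have 1 listed transcript.

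MSTRG.4442, a locus with 1 listed transcript, stood far above all the others with a mean of 379 FPKM. It was at 404, 363, 335 and 183 FPKM in knockout replicates 2, 3, 4 and 5, the order used for knockout values throughout, and at 388 to 469 FPKM in wild-type samples with a median of 411 FPKM. The lowest value was that of knockout replicate 5, and the genotypes overlapped. The next loci by level were MSTRG.351 (mean 32.3 FPKM), MSTRG.7879 (29.95 FPKM), MSTRG.3227 (16.2 FPKM), MSTRG.6492 (12.3 FPKM) and MSTRG.34278 (10.01 FPKM). MSTRG.351 had 30.2, 38.2, 20.96 and 13.7 FPKM in knockout samples, against 26.6 to 50.8 FPKM in wild-type samples. MSTRG.7879 had 22.6, 42.1, 11.4 and 16.6 FPKM in knockout samples, against 16.9 to 41.5 FPKM in wild-type samples. MSTRG.6492 was at 11.2, 10.6, 12.5 and 23.9 FPKM in knockout samples and at 9.28 to 11.7 FPKM in wild-type samples. In MSTRG.351, MSTRG.7879 and MSTRG.6492 the genotypes overlapped, and knockout replicate 5 gave the lowest knockout value of MSTRG.351 and the highest of MSTRG.6492. The 859 loci summed to 2096 ± 151 FPKM in knockout samples (SD, n = 4) and to 2265 ± 73.8 FPKM in wild-type samples (SD, n = 6). Without MSTRG.4442 the sums were 1775 ± 78.0 FPKM in knockout samples (SD, n = 4) and 1846 ± 71.5 FPKM in wild-type samples (SD, n = 6). In bulk tissue, fewer cells of a type and less RNA per cell cannot be told apart for any of these levels.

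One listed transcript was the rule. Of the 859 loci, 674 (78.5%) had 1, 109 (12.7%) had 2, 40 (4.66%) had 3, 16 had 4, and 20 had 5 or more. The most were 18 in MSTRG.33065, 12 in MSTRG.27335, and 10 each in MSTRG.2212, MSTRG.4539 and MSTRG.9439. Loci with 2 or more listed transcripts were at a median of 2.51 FPKM, compared with 1.56 FPKM for loci with 1. StringTie numbers the transcripts of a locus, and the table skips numbers in 145 of the 859 loci (16.9%), whose median highest transcript number was 12 and whose largest was 83, in MSTRG.27335. The skipped transcripts of those loci were not analysed here, so for these 145 loci the FPKM sum covers a part of the locus, and whether the locus holds an annotated transcript was not tested. No number was skipped in 608 loci with 1 transcript and in 106 with 2 or more. Loci with skipped numbers were listed at 0 in a sample in 9.66% of cases, compared with 3.45% of the 608.

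Which transcript of a locus carried the signal often changed between samples. In the 185 loci with 2 or more listed transcripts, the transcript of highest mean held a median of 67.1% of the summed FPKM, and its share moved over a median range of 64.1 percentage points across the 10 samples. The same transcript led in every sample in 43 of these loci, and another led in at least 1 sample in 142. Across the 182 loci in which it could be computed, the Pearson r of the log2 levels of the leading and second transcripts had a median of −0.13 over 10 samples, with 104 below 0 and 51 below −0.5. These correlations are a description only: both levels come from the same reads, which StringTie divides between the models. The coefficient of variation (CV, the SD as a percentage of the mean) over the 10 samples was a median of 46.9% for the leading transcript and 39.0% for the sum, and the sum varied less than its leading transcript in 125 of the 185 loci.

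MSTRG.14339 shows the exchange in a locus of 2 transcripts. Its transcript 2 was at 2.66, 2.48, 2.90 and 0 FPKM in knockout samples, and in wild-type samples it was at 3.25, 3.72 and 3.26 FPKM in replicates 3, 4 and 7 and at 0.00855 FPKM or 0 in replicates 1, 5 and 6. Transcript 1 filled exactly the samples in which transcript 2 was near 0, with 2.21 FPKM in knockout replicate 5 and 3.34, 3.32 and 3.26 FPKM in wild-type replicates 1, 5 and 6. The sum had a CV of 15.3%, against 87.9% for the leading transcript, and r between the transcripts was −0.99. MSTRG.27338 behaved alike within its 2 transcripts: transcript 1 held 12.1 FPKM in knockout replicate 2 and 8.57 FPKM in wild-type replicate 5 and was listed at 0 in the other 8 samples, where transcript 2 was listed above 0. In MSTRG.3227, whose sum was at 27.5, 22.6, 16.4 and 8.70 FPKM in knockout samples and between 2.57 and 24.6 FPKM in wild-type samples, 4 of its 7 transcripts led in at least 1 sample. In MSTRG.33065, with the most transcripts, the transcript of highest mean held at most 46.8% in any sample, and 5 of its transcripts led in at least 1 sample.

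With all 10 samples, the share of the leading transcript passed the threshold in no locus, and smaller sets of samples changed this for 3 loci. Among 344 genes and loci with 2 or more transcripts, limma with Benjamini-Hochberg adjustment called 0 (0% of those tested) at an adjusted p below 0.05, and 0 of the 182 assembled loci among them. At an unadjusted p below 0.05 there were 7 of the 182 (3.85%), compared with 16 of all 344 (4.65%). The smallest p belonged to MSTRG.17101, whose leading transcript held 66.3, 43.2, 62.1 and 71.8% in knockout samples and 31.0 to 43.4% in wild-type samples. The difference was 21.6 percentage points (SE 5.90, limma adjusted p = 0.847), and the groups overlapped through knockout replicate 3. In MSTRG.26856 the leading transcript held 87.1, 0, 0 and 0% in knockout samples, against 0% in wild-type replicate 1 and 100% in the other 5 wild-type samples. That difference of −61.6 points (SE 25.2) had a limma adjusted p of 0.895, and 1 sample of each genotype went against the rest of its group. MSTRG.14504 (−57.6 points, SE 18.2) and MSTRG.26777 (−22.4 points, SE 8.09) both had a limma adjusted p of 0.892. Without wild-type replicate 7, which at 10.2% was the only wild-type sample below 79.8%, the difference of MSTRG.14504 was −71.7 points with a limma adjusted p of 0.0111. With only the 6 samples numbered 3, 4 and 5, an alternative added after the values were seen, MSTRG.26856 (−100 points) and MSTRG.10267 (−92.1 points) were called, with limma adjusted p-values of 0.000175 and 0.000282. Those 6 samples leave out knockout replicate 2 and wild-type replicate 1, the samples of MSTRG.26856 that went against their groups. Over all 10 samples the leading transcript of MSTRG.10267, named after its values were seen, held 24.7 ± 47.3% in knockout samples (SD, n = 4) and 62.5 ± 45.6% in wild-type samples (SD, n = 6).

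Levels varied more between knockout samples than between wild-type samples, and this order was not seen without 1 library. The median CV within genotype was 29.1% in knockout samples and 23.3% in wild-type samples, and 525 of the 859 loci (61.1%) had the higher CV in knockout samples. Without knockout replicate 5 the knockout median was 20.6%, and 368 loci (42.8%) had the higher CV in knockout samples. Those knockout CVs rest on fewer samples than the wild-type CVs, and a median CV tends to lie lower with fewer samples. The part of sample number in this change was not tested. The annotated genes of the same limit had medians of 42.9% in knockout samples and 34.3% in wild-type samples, and 28.9% in knockout samples without replicate 5. Across all 10 samples the highest value of an assembled locus was a median of 2.61 times its lowest, compared with 3.71 times for annotated genes. This ratio covers only the 822 assembled loci and 229 annotated genes above 0 in every sample. Loci with 1 transcript and no skipped number had medians of 27.5% in knockout samples and 21.3% in wild-type samples. Loci with skipped numbers had medians of 34.0% in knockout samples and 30.5% in wild-type samples, but many of them list more than 1 transcript. The 66 with skipped numbers and 1 listed transcript had medians of 27.4% in knockout samples and 24.4% in wild-type samples. Loci with 2 or more transcripts and no skipped number had 33.5% in knockout samples and 28.6% in wild-type samples.

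Knockout replicate 5 also held the most extremes. It had the highest of the 10 values in 186 loci, against 27 to 129 for each other library, and the lowest in 206 loci, against 41 to 127. In 7 loci it lay above all other samples by at least 1 on the log2(FPKM + 1) scale, and in 11 it lay below all others by at least 1. The other 9 libraries had 0 or 1 such high loci and 0 to 3 such low loci each. On the first principal component of the 859 loci (27.7% of variance) this library scored 14.6 and the others scored between −5.16 and 3.05. The part of depth or RNA quality in this was not tested.

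**Figure D2:**
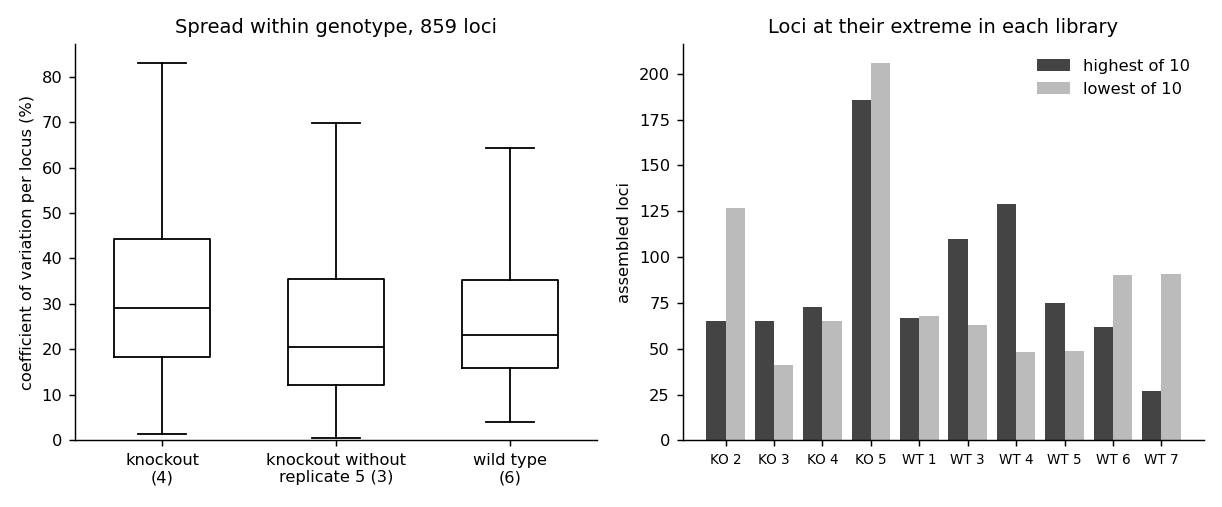
Left, CV within genotype over the 859 loci, for all 4 knockout samples, for knockout samples without replicate 5 and for the 6 wild-type samples; lines are medians, boxes quartiles, and whiskers reach the last locus within 1.5 box heights, with loci beyond not drawn. Right, number of loci at their highest (dark) or lowest (light) value of the 10 samples in each library. The knockout median falls below the wild-type median without replicate 5, where it rests on fewer samples than the wild-type median. That library holds the most extremes of both kinds.

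Of the 5 loci that varied most within genotype, 2 took nearly all of their sum from 1 library and 3 varied in other ways. MSTRG.29369 was at 31.9 FPKM in knockout replicate 2 and between 0 and 0.133 FPKM in the other 9 samples, so 98.2% of its summed FPKM came from 1 library. MSTRG.16394 was at 16.7 FPKM in knockout replicate 5 and between 0.0365 and 0.293 FPKM elsewhere, with 92.3% from that library. Both passed the limit of a mean of 1 FPKM through that 1 sample. MSTRG.16691 (8 transcripts, 0 to 9.87 FPKM) and MSTRG.15102 (2 transcripts, 0 to 5.45 FPKM) ranged widely within both genotypes. MSTRG.27338 was at 6.02 to 13.7 FPKM in knockout samples and at 8.57 to 10.9 FPKM in 4 wild-type samples, but wild-type replicates 3 and 4 had 0.791 and 0.794 FPKM. Outside these 5, MSTRG.23211 took 54.4% of its sum from knockout replicate 5. At the other end, MSTRG.33064, singled out after its values were seen, had 8.99, 9.30, 9.19 and 9.20 FPKM in knockout samples, a CV of 1.46% that was the lowest of the 859 loci, and 7.25 to 10.3 FPKM in wild-type samples.

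Between the genotypes, 2 assembled loci passed the test, MSTRG.35125 lower and MSTRG.13051 higher in Sirt5 knockout. These are 2 of 859 (0.233%), read against 2 of all 1122 genes and loci fitted together (0.178%; 0.0891% in each direction) by limma on log2(FPKM + 1) with Benjamini-Hochberg adjustment at 0.05. At an unadjusted p below 0.05 there were 103 loci (12.0%), 28 higher and 75 lower in knockout, and over all 1122 genes and loci the shares were 11.7% in either direction, 3.12% higher and 8.56% lower. The assembled loci therefore stood near the share over all genes and loci in each count, of which they are themselves the larger part. Among the 263 annotated genes alone, 28 (10.6%) had an unadjusted p below 0.05, and both calls after adjustment were assembled loci. The split of the 103 loci between directions depended on scaling and on single libraries. It was 41 higher and 62 lower with median-of-ratios scaling, 39 and 57 with quantile normalization, and 10 and 113 with every library brought to a common sum. Without knockout replicate 5 it was 25 higher and 46 lower, and without knockout replicate 2 it was 36 and 49. The median log2 fold change of the 859 loci was −0.02, beside −0.03 over all 1122, and it was 0.0083 with median-of-ratios scaling, 0.02 with quantile normalization and −0.14 at a common sum.

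MSTRG.35125 had the largest difference of the 859 loci on the log2(FPKM + 1) scale. Its sum was at 0.110, 0.345, 0.460 and 2.06 FPKM in knockout samples, and in wild-type samples it ranged from 4.38 to 9.62 FPKM with a median of 6.79 FPKM. The highest knockout value, in replicate 5, lay 2.32 FPKM under the lowest wild-type value. The means were 0.744 ± 0.889 FPKM in knockout samples (SD, n = 4) and 6.93 ± 2.14 FPKM in wild-type samples (SD, n = 6), a 9.32-fold lower mean. The log2 fold change was −2.26 (SE 0.292, limma adjusted p = 0.0101). The 3 listed transcripts, numbered 19, 20 and 22, moved together. Transcript 19 was at 0.110, 0, 0.460 and 1.18 FPKM in knockout samples and at 1.44 to 5.25 FPKM in wild-type samples. Transcript 22 was at 0, 0.345, 0 and 0.881 FPKM in knockout samples and at 1.40 to 3.19 FPKM in wild-type samples. Transcript 20 was listed at 0 in all 4 knockout samples and was at 0.185 to 3.68 FPKM in wild-type samples. None of the 3 overlapped between the genotypes. Without knockout replicate 5 the log2 fold change was −2.57 (limma adjusted p = 0.000825), without knockout replicate 2 it was −2.08 (adjusted p = 0.0561), and with only the leading transcript in place of the sum it was −1.63 (adjusted p = 0.0706). With no filter on level the limma adjusted p was 0.124. The lower transcript numbers of this locus were not analysed here.

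**Figure D3:**
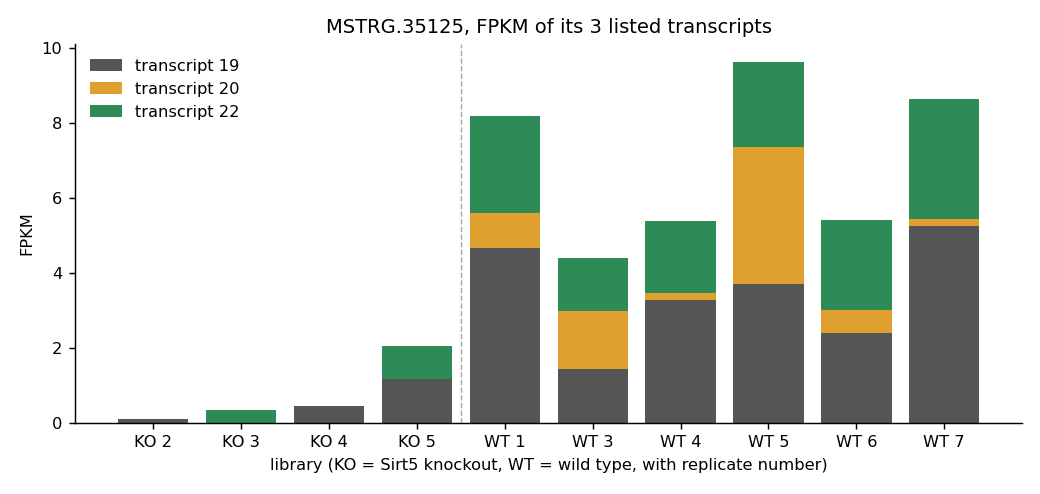
FPKM of the 3 listed transcripts of MSTRG.35125, stacked for each library, with the 4 knockout samples left of the dashed line and the 6 wild-type samples right of it. The knockout stacks reach 0.110 to 2.06 FPKM and the wild-type stacks 4.38 to 9.62 FPKM, and transcript 20 is seen in wild-type stacks only.

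MSTRG.13051, a locus with 1 transcript, was at 1.79, 1.85, 2.40 and 2.52 FPKM in knockout samples and at 0.778 to 1.19 FPKM in wild-type samples, with a median of 0.989 FPKM. The lowest knockout sample lay 0.602 FPKM above the highest wild-type sample. The means were 2.14 ± 0.376 FPKM in knockout samples (SD, n = 4) and 1.00 ± 0.160 FPKM in wild-type samples (SD, n = 6), a difference of 0.65 on the log2 scale (SE 0.106, limma adjusted p = 0.0423). Leaving out any 1 of the 10 samples ended the call, with limma adjusted p-values between 0.0561 and 0.121. Just short of the threshold were MSTRG.26777 (limma adjusted p = 0.0520) and MSTRG.16415 (limma adjusted p = 0.0521).

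In 28 of the 859 loci (3.26%) no knockout value fell within the wild-type range, against 36 of all 1122 genes and loci (3.21%). They comprised 10 loci higher in knockout (1.16%, against 1.07% of all) and 18 lower (2.10%, against 2.14% of all). The share among assembled loci was therefore near that over the 1122 genes and loci, of which they are themselves the larger part. Among the 263 annotated genes alone, 8 (3.04%) met the same condition. No test is given for these loci, since the contrast itself chose them. In 21 of the 28 the table lists 1 transcript, and 3 have skipped numbers. These 3 are MSTRG.3153, MSTRG.13678 and MSTRG.35125, with highest transcript numbers of 7, 29 and 22, and their FPKM sums cover a part of the locus. No locus was listed at 0 in every sample of 1 genotype and above 0 in every sample of the other.

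Of the 10 higher loci, 5 had a knockout mean at least 2 times the wild-type mean. MSTRG.1888 was at 4.87, 2.98, 2.20 and 3.30 FPKM in knockout samples and at 0.828 to 2.14 FPKM in wild-type samples (median 0.893 FPKM). Its wild-type replicate 1 came within 0.0572 FPKM of the lowest knockout sample, while the other 5 wild-type samples stayed at or below 1.38 FPKM. MSTRG.32566 was at 1.37, 1.45, 2.69 and 2.00 FPKM in knockout samples and at 0.596 to 1.05 FPKM in wild-type samples (median 0.811 FPKM). MSTRG.26777 was at 2.13, 2.18, 1.96 and 1.53 FPKM in knockout samples and at 0.742 to 1.21 FPKM in wild-type samples (median 0.951 FPKM). The gap between the genotypes in these last 2 loci was 0.322 and 0.319 FPKM. MSTRG.15286 was at 2.58, 2.05, 2.18 and 5.62 FPKM in knockout samples and at 1.37 to 1.83 FPKM in wild-type samples. Its difference on the log2 scale was 0.62 with knockout replicate 5 and 0.36 without it. The other 5 higher loci had smaller differences, of 0.16 to 0.32. MSTRG.22070 was at 2.83 to 3.15 FPKM in knockout samples and at 1.84 to 2.49 FPKM in wild-type samples. MSTRG.20308 was at 1.20 to 1.40 FPKM in knockout samples and at 0.535 to 1.12 FPKM in wild-type samples. MSTRG.17730 was at 1.72 to 2.81 FPKM in knockout samples and at 1.49 to 1.67 FPKM in wild-type samples, and its log2 difference was 0.22 with knockout replicate 5 and 0.11 without it. MSTRG.29986 and MSTRG.25063 were apart by 0.0534 and 0.0309 FPKM at their nearest samples.

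**Figure D4:**
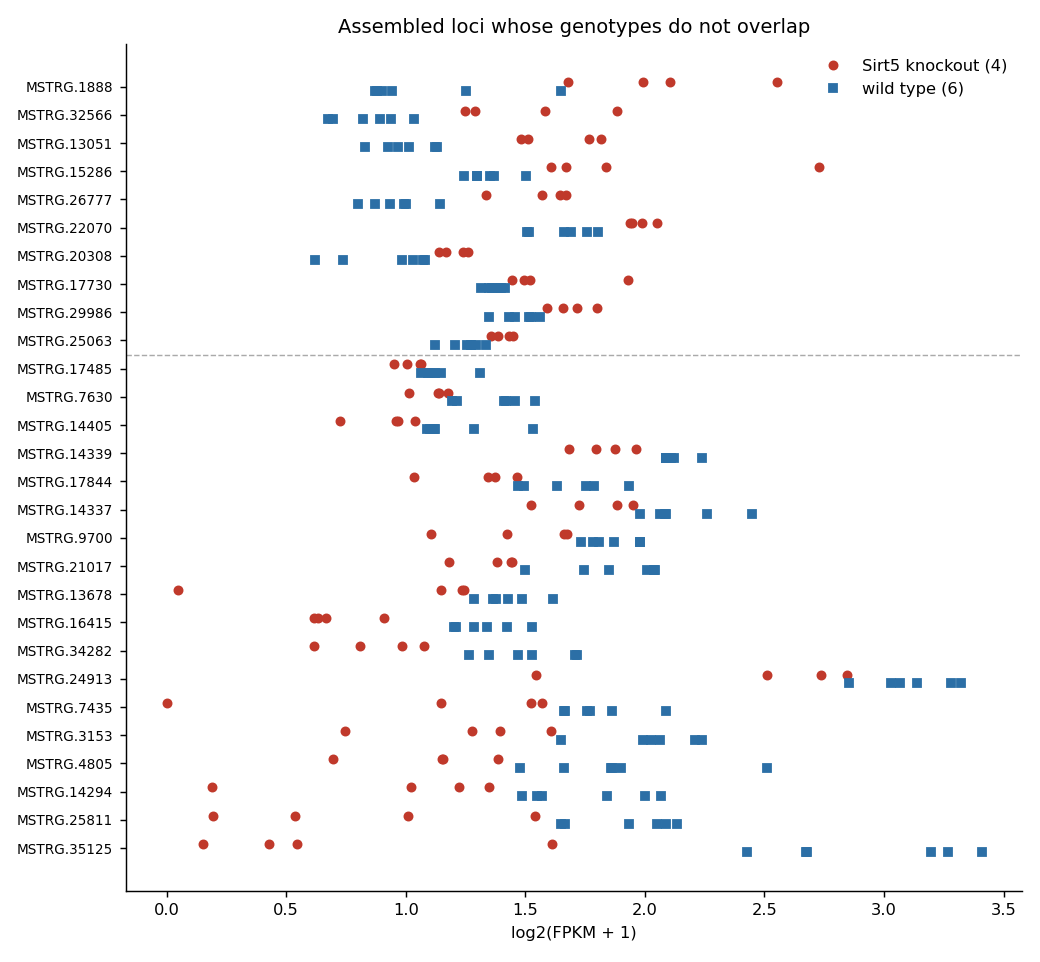
Level of the 28 loci whose genotypes do not overlap, as log2(FPKM + 1), with 1 point for each sample (red circles, 4 knockout samples; blue squares, 6 wild-type samples). The 10 loci above the dashed line are higher in knockout and the 18 below it are lower; several pairs of groups nearly touch, and the widest gap is that of MSTRG.35125.

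Of the 18 lower loci, 7 had a wild-type mean at least 2 times the knockout mean, MSTRG.35125 among them. MSTRG.25811 was at 1.01, 1.91, 0.452 and 0.145 FPKM in knockout samples and at 2.13 to 3.39 FPKM in wild-type samples (median 2.98 FPKM). MSTRG.14294 was at 1.54, 1.03, 1.33 and 0.139 FPKM in knockout samples and at 1.80 to 3.20 FPKM in wild-type samples (median 2.27 FPKM). MSTRG.4805 was at 0.618, 1.23, 1.61 and 1.22 FPKM in knockout samples and at 1.79 to 4.70 FPKM in wild-type samples (median 2.63 FPKM). In the first 2 of these the lowest value was that of knockout replicate 5, and in MSTRG.4805 it was that of replicate 2. MSTRG.34282 was at 0.753, 1.11, 0.979 and 0.532 FPKM in knockout samples and at 1.40 to 2.28 FPKM in wild-type samples. MSTRG.16415 was at 0.879, 0.532, 0.586 and 0.553 FPKM in knockout samples and at 1.30 to 1.89 FPKM in wild-type samples, a gap of 0.420 FPKM. MSTRG.3153 was at 1.43, 2.05, 1.63 and 0.676 FPKM in knockout samples and at 2.13 to 3.72 FPKM in wild-type samples. These 3 loci differed by −0.63, −0.63 and −0.77 on the log2 scale. Without knockout replicate 5, MSTRG.14294, MSTRG.34282 and MSTRG.3153 had knockout means of 1.30, 0.947 and 1.70 FPKM. Their wild-type means of 2.41, 1.86 and 3.12 FPKM were then less than 2 times as high. Their log2 differences without it were −0.56 (−0.81 with it), −0.55 and −0.60. MSTRG.35125, MSTRG.25811, MSTRG.4805 and MSTRG.16415 kept a ratio of at least 2.

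In 3 further loci, as in MSTRG.14294, 1 knockout sample lay far below the other 3. MSTRG.7435 was at 1.88, 0, 1.97 and 1.21 FPKM in knockout samples and at 2.16 to 3.25 FPKM in wild-type samples. MSTRG.13678 was at 1.35, 1.22, 1.36 and 0.0343 FPKM in knockout samples and at 1.44 to 2.06 FPKM in wild-type samples, and its log2 difference was −0.51 with knockout replicate 5 and −0.22 without it. MSTRG.24913 was at 4.70, 6.19, 5.67 and 1.91 FPKM in knockout samples and at 6.22 to 9.01 FPKM in wild-type samples, and its log2 difference was −0.71 with that library and −0.42 without it. The nearest samples of MSTRG.24913 were 0.0283 FPKM apart. The remaining 8 lower loci, MSTRG.21017, MSTRG.9700, MSTRG.14337, MSTRG.17844, MSTRG.14339, MSTRG.14405, MSTRG.7630 and MSTRG.17485, differed by −0.50 to −0.12 on the log2 scale. MSTRG.14339, whose 2 transcripts exchanged between samples, had sums of 2.21 to 2.90 FPKM in knockout samples and 3.25 to 3.72 FPKM in wild-type samples, so its sum stood apart between the genotypes while neither transcript did. The narrowest gap was that of MSTRG.17485, 0.00127 FPKM.

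Knockout replicate 5 was the most extreme knockout sample in 4 of the 10 higher loci and in 9 of the 18 lower ones. Leaving a library out can only add to the loci that do not overlap among the same 859. Without knockout replicate 5 there were 19 higher and 24 lower. Among loci with a mean of at least 1 FPKM over the samples that remain, the higher count was 20, 17 and 16 without knockout replicates 2, 3 and 4 and 21 without wild-type replicate 1, and the lower count was 41, 36 and 36 without knockout replicate 3, knockout replicate 4 and wild-type replicate 1. Bringing every library to a common sum gave 4 higher and 37 lower loci, whereas median-of-ratios scaling gave 12 and 19 and quantile normalization 12 and 16.

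Assembled loci with consecutive numbers varied together across samples. Among the 859 loci there were 127 pairs with consecutive numbers, whose Pearson r of log2 levels over the 10 samples had a median of 0.53 with quartiles of 0.30 and 0.77. The median was 0.43 for the 79 pairs with numbers 2 apart, 0.21 for the 60 pairs 3 apart and 0.17 for the 262 pairs 4 to 10 apart. It was 0.02 for the 1013 pairs 11 to 50 apart, and 0.03 for all 368511 pairs. Among consecutive pairs 42.5% had an r above 0.6, against 6.86% of all pairs. The median of the consecutive pairs was 0.54 with each genotype's mean removed and 0.48 without knockout replicate 5, an alternative added after the values were seen. These values share libraries and depth, and pairs that share a locus are not independent. The table gives no positions, and whether neighbouring numbers lie beside each other on a chromosome, in 1 unit of transcription, was not tested.

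**Figure D5:**
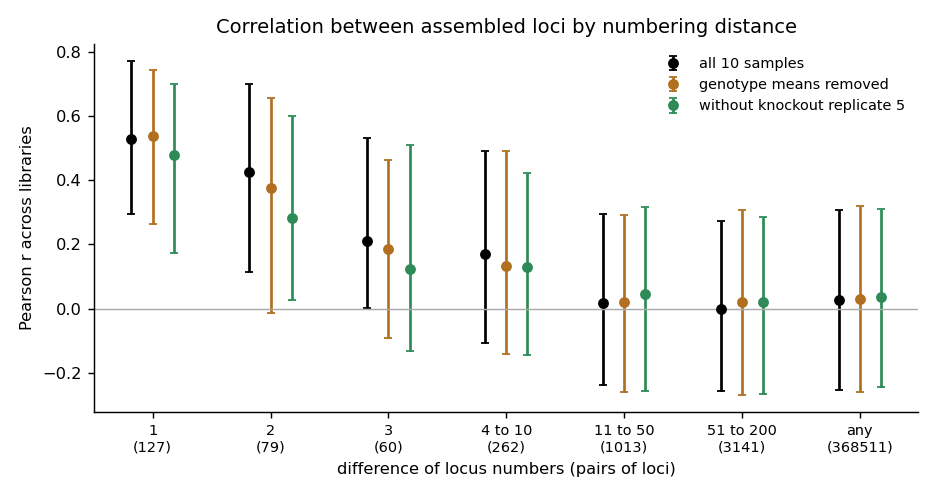
Pearson r between pairs of assembled loci across samples, by the difference of their locus numbers, with the number of pairs in brackets. Points are medians and bars quartiles, for all 10 samples (black), with genotype means removed (brown) and without knockout replicate 5 (green); the median of 0.53 at a difference of 1 declines to about 0 from a difference of 11 on.

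The consecutive numbers formed 94 runs with 221 of the 859 loci, the longest being 7 loci from MSTRG.34448 to MSTRG.34454. The most alike pair was MSTRG.3153 and MSTRG.3154, with an r of 0.98 over all samples and 0.97 without knockout replicate 5. MSTRG.3154 was at 1.06, 1.82, 1.40 and 0.404 FPKM in knockout samples and at 1.45 to 2.69 FPKM in wild-type samples, so its genotypes overlapped while those of its neighbour did not. MSTRG.15286 and its neighbour MSTRG.15287 had an r of 0.95, and 0.70 without knockout replicate 5, where both were at their highest. MSTRG.14337 and MSTRG.14339, both among the 18 lower loci and 2 numbers apart, had an r of 0.90. Both were picked for lower knockout values, which by itself raises an r over all samples. Neighbouring numbers did not always vary together: MSTRG.34459 and MSTRG.34460 had an r of −0.57, and −0.56 without knockout replicate 5. The lowest r of a consecutive pair, −0.65 for MSTRG.16484 and MSTRG.16485, rested on that library and was 0.49 without it. The 7 loci of the longest run had a median r of 0.13.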

How the data were processed

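According to the design text of the series, ribosomal RNA was removed, the second cDNA strand was digested and reads were aligned to GRCm38 with HISAT2 (no version given in the sources used here). The deposited FPKM were computed by the authors with StringTie 1.2.0, per the same text. Read counts by HTSeq 0.6.1 were not used here. Different removal kits and instruments are named there and not assigned to samples, and whether StringTie used strand is not given. Of 20741 transcripts, 1629 were assembled and 19112 had Ensembl identifiers, 18969 of which matched GENCODE M21. The rule that chose the table's transcripts is not given.

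FPKM were summed per gene or assembled locus, and the 1122 with a mean of at least 1 FPKM (859 assembled) were fitted together on log2(FPKM + 1), which understates the fold change of low loci. Knockout and wild-type samples were set against each other with limma 3.58.1 in R 4.3.3 (empirical Bayes with intensity trend, two-sided, Benjamini-Hochberg adjusted p below 0.05). The fit was tested on simulated data. Leading-transcript shares were fitted without a trend. Loci whose genotypes do not overlap were counted without a test. Depth was estimated from the FPKM worth of 1 fragment in Ensembl transcripts of known length (pandas 2.3.3, Python 3.11.15), so it limits the precision of assembled loci only approximately, since their lengths are not in the table. Alternatives covered the pseudocount, filters, scaling, moderation, sample weights, pairing by number, leaving out libraries and the choice of transcript.

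Named loci were those called, up to 10 that do not overlap in each direction by size of difference, the 5 of highest level, of most transcripts and of largest and smallest spread within genotype (smallest among means of at least 10 FPKM), the 3 on either side of the limit, and the 4 smallest p for shares; loci outside this rule (examples of transcript exchange, of consecutive numbers and of steady levels) were picked after their values were seen. The members and lists were chosen with earlier results of these data known.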

Additional observations from a re-analysis of the deposited data

Results flagged for a closer look

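Dixon's test at the 95% level was applied to groups of 4 or 6 samples. The values were those of the named loci and, for each library, its sums, medians and counts over the assembled loci. Of 88 groups, 14 held a sample far from the rest of its group, where chance alone gives about 1 in 20. All 14 were groups of values of the named loci. The named loci were picked partly for large spread or for separation of the genotypes, so the number of such groups is no test of chance. Knockout replicate 5 was the sample apart in 5 of the 14. There, MSTRG.15286 was at 5.62 FPKM (other knockout samples 2.05 to 2.58), MSTRG.17730 at 2.81 FPKM (1.72 to 1.87), MSTRG.6492 at 23.9 FPKM (10.6 to 12.5), MSTRG.16394 at 16.7 FPKM (0.0423 to 0.293), and MSTRG.13678 at 0.0343 FPKM (1.22 to 1.36).

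In knockout replicate 2, MSTRG.29369 was at 31.9 FPKM (other knockout samples 0 to 0.0414) and MSTRG.16415 at 0.879 FPKM (0.532 to 0.586). In knockout replicate 3, MSTRG.4539 was at 2.81 FPKM (7.07 to 7.81), the only knockout sample within the wild-type range of 1.44 to 3.71 FPKM. The wild-type sample apart in the same locus was replicate 6, at 1.44 FPKM (3.29 to 3.71). Wild-type replicate 4 had 4.70 FPKM of MSTRG.4805 (1.79 to 2.73), and wild-type replicate 3 had 16.9 FPKM of MSTRG.7879 (34.2 to 41.5).

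Shares of the leading transcript stood apart in 3 groups. MSTRG.26856 was at 87.1% in knockout replicate 2, against 0% in the other knockout samples, and at 0% in wild-type replicate 1, against 100% in the other wild-type samples. MSTRG.14504 was at 10.2% in wild-type replicate 7, against 79.8 to 100% in the other wild-type samples. The part of depth, library quality or estimation by StringTie in these values was not tested.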

How the results depend on the processing

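The fold changes of the 20 loci named for a call or for genotypes that do not overlap kept their direction under every alternative run for them. In all 20 the genotypes do not overlap on the deposited scale. Leaving out samples, weights, pairing, the pseudocount, filters and moderation therefore could not reverse them, and only scaling and the choice of transcript could. Against 1 call higher and 1 lower in knockout, the counts higher and lower were 1 and 2 with a pseudocount of 0.1, 0 and 1 with a mean of at least 0.1 or at least 2 FPKM, 0 and 0 with no filter, 2 and 1 with median-of-ratios scaling, 2 and 2 with quantile normalization, 0 and 5 at a common sum, 0 and 1 without an intensity trend, 2 and 2 with robust moderation, 3 and 3 with array weights, 0 and 0 with the leading transcript only, and 0 and 1 without the 4 libraries in which Rmrp was at 0. Leaving out each replicate gave 0 to 1 higher and 0 to 2 lower. MSTRG.35125 was called in 19 of 24 alternatives (limma adjusted p 0.000675 to 0.252) and MSTRG.13051 in 5 of 23 (0.0255 to 0.531). The median log2 fold change of all genes and loci was −0.14 at a common sum, 0.0021 with median-of-ratios scaling and 0.01 with quantile normalization, against −0.03 on the deposited scale.

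Against 10 higher and 18 lower loci whose genotypes do not overlap, there were 3 and 10 with a mean of at least 2 FPKM, 4 and 37 at a common sum, 41 and 49 without the 4 libraries, and 10 to 21 and 20 to 41 when each replicate was left out; fewer samples overlap less by construction. The median CV lay between 20.5% and 29.8% in knockout samples and between 22.3% and 24.0% in wild-type samples when each replicate was left out. Without knockout replicate 5 the knockout median was 20.6%, below that of wild type. Loci with the higher CV in knockout were then 368 of 859, against 525 with it. Those knockout CVs rest on fewer samples than the wild-type CVs, which tends to lower a median CV. The part of sample number in this change was not tested.

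Whether replicate numbers pair the samples cannot be told from 3 pairs. Deviations from the genotype means had an r of −0.16, 0.18 and 0.08 between same-numbered samples 3, 4 and 5. The samples numbered 4 were each other's closest match. Wild-type replicate 5 was closest to knockout replicate 5, which was itself closest to wild-type replicate 3. The samples numbered 3 were not each other's closest match in either direction. With the replicate block (3 pairs) there were 0 calls higher and 0 lower, and the same 6 samples without the block, chosen after seeing the data, gave 0 and 0. For leading-transcript shares the block gave 2 calls in place of 0 (MSTRG.10267 and MSTRG.26856, limma adjusted p = 0.0312 each), the same 6 samples without the block gave 2, the same loci, and leaving out each replicate gave 0 to 1. The cause of these changes was not tested, beyond the fewer samples. Assembled loci of few fragments, in which 1 FPKM is about 22.7 to 29.8 fragments per kilobase, limit what these counts can show.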
